A study of Homo sapiens with 2 samples.

Results

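Desmosomes are the button-like junctions that rivet neighbouring epithelial cells together. The 10 genes described here encode their main parts: the desmosomal cadherins DSG2, DSG3, DSC2 and DSC3, the plaque proteins JUP and DSP, and the plakophilins PKP1, PKP2, PKP3 and PKP4. They were taken by symbol from the 58051 genes of 2 count tables, and each of the 10 matched 1 gene. All 10 had at least 100 counts summed over both libraries, the minimum for a gene to be called measured, as did 11466 genes in all. PKP1 reached that minimum through the TRPV3-OE library alone.

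RNA was sequenced from BEAS-2B, a line of human bronchial epithelial cells immortalised in culture, and from BEAS-2B cells that overexpress TRPV3 (TRPV3-OE), a cation channel that lets calcium into the cell. Each group was 1 library of untreated cells, frozen at confluence. Parental cells, labelled WT, were between passage 20 and 30 and TRPV3-OE cells between passage 4 and 8, so that passage and TRPV3 level cannot be told apart here. How TRPV3 was introduced, and whether the line is 1 clone, is not given in the sources used here. TRPV3 itself checks the labels, with 26 parental and 54077 TRPV3-OE counts. Library totals were 17450658 and 17477953 counts. Without replicates the spread between cultures is unknown and nothing below carries a p-value. Bounds in brackets span an exact 95% interval that covers only counting error. Copies made by PCR are not separate molecules, so these intervals may be too narrow even for that. In a bulk library, fewer cells with a transcript and less transcript per cell cannot be told apart.

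In a desmosome, desmogleins and desmocollins span the membrane and bind their counterparts on the next cell in a calcium-dependent way. Plakoglobin (JUP) and the plakophilins bind the cadherin tails inside the cell and gather desmoplakin (DSP), which ties the junction to keratin filaments. Plakophilin 1 is best known from the upper layers of stratified epithelia such as skin, plakophilin 2 from simple epithelia and heart, and plakophilin 3 from most epithelia. Plakophilin 4, also called p0071, is found at adherens junctions as well.

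Of the 10 genes PKP1 differed most between the libraries, from near absence to a low but clearly detected level, while the other 9 lay within 2-fold. Calls needed a ratio of TRPV3-OE over parental beyond 2-fold whose counting interval excluded 1. By this rule 1 of 10 was higher, where 5.31% of the 11466 measured genes were, and 0 of 10 were lower, where 5.35% were. Of the remaining 9 the JUP, DSG2, DSG3, DSC2, DSC3 and DSP ratios lay above 1, and those of PKP2, PKP3 and PKP4 below it. The median log2 ratio of the 10 genes was 0.42, beside −0.03 over all measured genes.

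The promoters below show the letters just upstream of PKP1 beside those of 3 members whose promoters hold an E-box. Some of the junction-gene repressors described further down bind this site. Each run is the 250 bases upstream of a start annotated by RefSeq on GRCh38.p14, written 5′ to 3′ on the gene's strand, with every CACCTG or its reverse complement CAGGTG in capitals. The PKP1 run is chr1:201283256-201283505 (plus strand), that of DSP chr6:7541421-7541670 (plus), that of DSG2 chr18:31497927-31498176 (plus) and that of DSC2 chr18:31102422-31102671 (minus, the more upstream of its listed starts).
PKP1: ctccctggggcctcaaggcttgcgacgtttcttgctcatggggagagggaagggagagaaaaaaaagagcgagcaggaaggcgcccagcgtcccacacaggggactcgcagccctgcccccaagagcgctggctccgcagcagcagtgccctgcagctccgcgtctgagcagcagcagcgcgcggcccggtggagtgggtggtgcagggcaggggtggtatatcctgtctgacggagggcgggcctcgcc
DSP: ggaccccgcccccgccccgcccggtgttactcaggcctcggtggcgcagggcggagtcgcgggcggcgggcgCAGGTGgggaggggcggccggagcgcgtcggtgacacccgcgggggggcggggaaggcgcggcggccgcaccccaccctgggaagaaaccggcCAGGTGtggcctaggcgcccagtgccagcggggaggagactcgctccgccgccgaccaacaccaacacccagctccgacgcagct
DSG2: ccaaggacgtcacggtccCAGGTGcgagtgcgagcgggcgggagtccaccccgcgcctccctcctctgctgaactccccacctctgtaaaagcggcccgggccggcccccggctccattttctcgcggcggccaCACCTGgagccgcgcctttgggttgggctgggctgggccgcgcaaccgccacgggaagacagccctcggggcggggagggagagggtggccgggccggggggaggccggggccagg
DSC2: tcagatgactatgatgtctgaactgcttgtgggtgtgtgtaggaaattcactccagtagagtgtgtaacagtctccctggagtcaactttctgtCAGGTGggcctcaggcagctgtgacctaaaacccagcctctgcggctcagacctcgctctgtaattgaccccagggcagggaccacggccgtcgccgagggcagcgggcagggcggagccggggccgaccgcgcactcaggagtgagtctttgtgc
The search covered 300 bases, from 250 before to 50 after each start, on both strands. The RefSeq table held 8 of the 10 genes, with 11 promoters in all. An E-box was found in 4 of the 11 promoters, each from a different gene, namely DSP (at positions −178 and −85 from the start), DSG2 (−232 and −116), DSC2 (−156) and JUP (−54 and −43 of a second start). The table lists 35116 promoters, and 20.6% of them held one. None of the 11 promoters held a Grainyhead site (AACCGGTT, in 0.134% of all promoters), a TATA box (TATAAA, 11.5%) or an AP-1 site (TGACTCA, 4.95%). GC content was 67.3% for PKP1, 77.0% for DSP, 76.7% for DSG2 and 44.0% for DSG3, beside a median of 58.7% in the table. These matches describe letters in this window and no binding.

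Plakophilin 1 (PKP1, ENSG00000081277, chr1:201283452-201332993, plus strand, GRCh38) had 18 parental and 544 TRPV3-OE counts. In counts per 1000000 after scaling (CPM) that is 1.05 (0.623 to 1.66) against 30.6 (28.0 to 33.2). The ratio was 29.1-fold (18.2 to 49.4), a log2 ratio of 4.86 (4.19 to 5.63), and 13th highest of 10925 measured protein-coding genes. PKP1 was thus close to silent in the parental library and clearly detected in TRPV3-OE, and the 2 counting intervals were far apart.

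Levels of different genes were compared per length, as CPM per 1000 bases of merged exons (RPKM). On that scale PKP1 went from 0.169 RPKM, above 0.4% of measured protein-coding genes, to 4.92 RPKM, above 35.4% of them. It was the lowest of the 10 genes in the parental library and the ninth in TRPV3-OE, above DSC2. Even after a 29.1-fold difference it stayed below every other plakophilin.

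**Figure D1:**
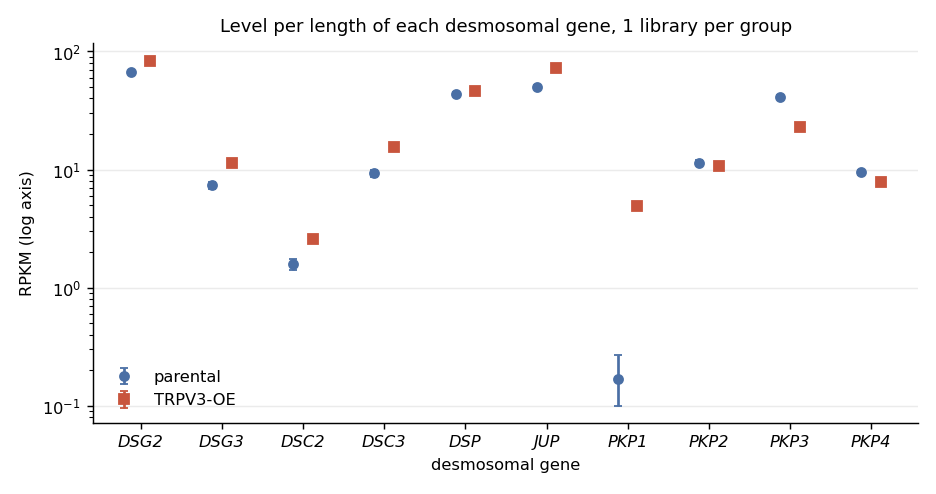
Level of each desmosomal gene in RPKM on a log axis, for the parental library (circles) and the TRPV3-OE library (squares), with exact 95% Poisson intervals that are mostly smaller than the symbols. PKP1 moves from 0.169 to 4.92 RPKM, while DSG2 is the highest gene in both libraries (66.8 and 83.1 RPKM) by merged exon length.

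Plakophilin 3 (PKP3, ENSG00000184363, chr11:392614-404908, plus strand) went the other way. It had 2650 parental and 1549 TRPV3-OE counts, or 40.9 RPKM (39.3 to 42.4) and 23.0 RPKM (21.8 to 24.1). The log2 ratio was −0.83 (−0.92 to −0.74), a 1.78-fold lower level, which 7.9% of measured genes lay below. It was the lowest ratio among the 10 genes and the only one at least 1.5-fold lower.

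Plakophilin 2 (PKP2, ENSG00000057294, chr12:32790745-32896840, minus strand) had 1382 and 1332 counts, or 11.5 and 10.6 RPKM. Its log2 ratio of −0.11 (−0.22 to 0.00) is the only one among the 10 whose interval reached 0. Plakophilin 4 (PKP4, ENSG00000144283, chr2:158456964-158682879, plus strand) had 1547 and 1343 counts, or 9.48 and 7.92 RPKM, with a log2 ratio of −0.26 (−0.37 to −0.15). Both genes were thus nearly level between the libraries.

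The make-up of the plakophilins therefore differed between the libraries. In the parental library PKP3 held 65.9% of their summed RPKM, PKP2 18.5%, PKP4 15.3% and PKP1 0.273%. In TRPV3-OE the shares were 49.5% for PKP3, 22.9% for PKP2, 17.1% for PKP4 and 10.6% for PKP1. The sum itself was 62.0 RPKM in the parental library and 46.4 RPKM in TRPV3-OE, so that the gain in PKP1 was smaller than the loss in PKP3 on this scale. Pairs of genes compared within each library are free of scaling and of gene length, and 7 pairs were examined. The ratio of PKP1 to PKP3 was 51.7 times higher in TRPV3-OE (32.2 to 88.2, exact conditional interval). For PKP1 against PKP2 it was 31.3 times (19.5 to 53.6), and against PKP4 34.8 times (21.7 to 59.5). PKP3 against PKP2 was 0.607 times its parental value (0.549 to 0.670).

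**Figure D2:**
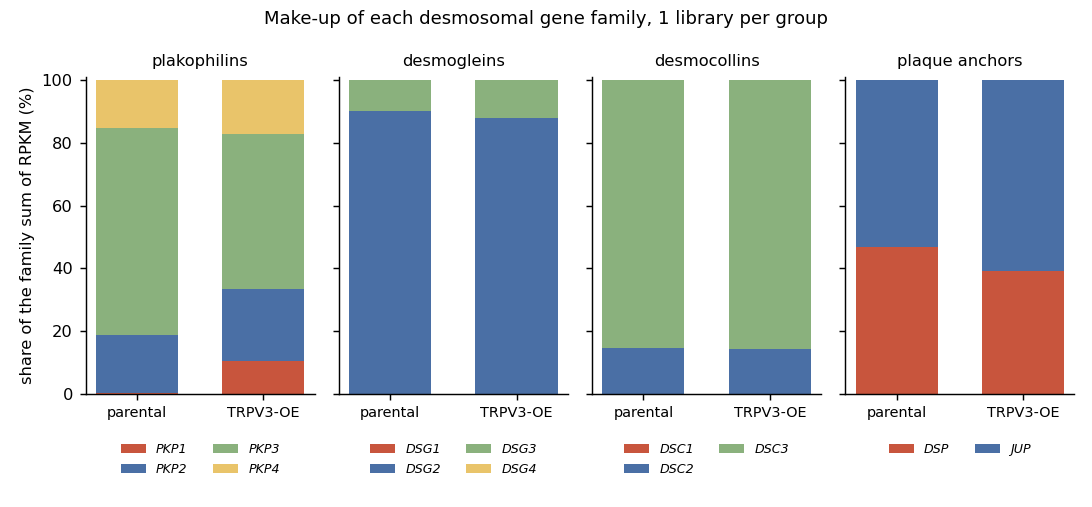
Stacked bars give the share (%) of each family's summed RPKM held by each gene in the parental and TRPV3-OE libraries, for plakophilins, desmogleins, desmocollins and the plaque anchors DSP and JUP. PKP1 takes 10.6% of the plakophilin sum in TRPV3-OE, against 0.273% in the parental library, while the desmocollin bars are nearly the same.

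None of the 4 cadherins passed the 2-fold rule, and all 4 had ratios above 1. Desmoglein 2 (DSG2, ENSG00000046604, chr18:31498043-31549008, plus strand), the desmoglein of simple as well as stratified epithelia, had 7086 and 9155 counts. At 66.8 RPKM (65.3 to 68.4) and 83.1 RPKM (81.4 to 84.8) it was the highest of the 10 genes in both libraries, by merged exon length. Its log2 ratio was 0.31 (0.27 to 0.36), or 1.24-fold. With the longest transcript as gene length, JUP was above DSG2 in TRPV3-OE (101.8 against 88.17 RPKM). In the parental library JUP then had 70.74 and DSG2 70.95 RPKM.

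Desmoglein 3 (DSG3, ENSG00000134757, chr18:31447795-31478702, plus strand), a desmoglein of basal layers and the target of antibodies in pemphigus vulgaris, had 695 and 1127 counts. That is 7.34 and 11.5 RPKM, with a log2 ratio of 0.64 (0.50 to 0.78). DSG3 relative to DSG2 was 1.26 times higher in TRPV3-OE (1.14 to 1.39), and DSG2 still held 87.9% of the desmoglein sum, after 90.1% in the parental library.

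Desmocollin 3 (DSC3, ENSG00000134762, chr18:30990008-31042815, minus strand), the basal partner of DSG3, had 1119 and 1967 counts, or 9.26 and 15.7 RPKM. Its log2 ratio of 0.76 (0.65 to 0.87) was the highest of the 10 after PKP1. Desmocollin 2 (DSC2, ENSG00000134755, chr18:31058840-31102415, minus strand), the most widespread desmocollin, had 333 and 569 counts, or 1.57 and 2.58 RPKM, with a log2 ratio of 0.72 (0.52 to 0.92). DSC3 against DSC2 was 1.03 times its parental value (0.879 to 1.20), an interval that holds 1, and DSC3 kept 85.5% and 85.8% of the desmocollin sum.

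At a 1.5-fold limit 4 of the 10 genes were higher, namely PKP1, DSG3, DSC2 and DSC3, and 1 was lower, PKP3. Of all measured genes 12.7% and 14.2% passed that limit.

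Both plaque anchors were abundant. Plakoglobin (JUP, ENSG00000173801, chr17:41754604-41786931, minus strand), which also binds classical cadherins, had 4237 and 6337 counts. That is 50.1 RPKM (48.6 to 51.6) and 72.0 RPKM (70.2 to 73.8), with a log2 ratio of 0.52 (0.47 to 0.58). Desmoplakin (DSP, ENSG00000096696, chr6:7541575-7586717, plus strand) had 7614 and 8294 counts, or 44.1 and 46.2 RPKM, with a log2 ratio of 0.07 (0.02 to 0.11). DSP was therefore almost level between the libraries while JUP was 1.44-fold higher. Relative to JUP, DSP was 0.728 times its parental value (0.693 to 0.766).

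Per length the order in the parental library was DSG2, JUP, DSP, PKP3, PKP2, PKP4, DSC3, DSG3, DSC2 and PKP1. Neighbours in that order had separate counting intervals except PKP4 and DSC3. In TRPV3-OE the first 4 places were held by the same genes, followed by DSC3, DSG3, PKP2, PKP4, PKP1 and DSC2. Only DSG3 and PKP2 overlapped there. These intervals leave out the choice of gene length, which changed the order. With the longest transcript as gene length, PKP3 (55.08 RPKM) lay above DSP (45.38 RPKM) in the parental library. In TRPV3-OE JUP then lay above DSG2, PKP2 above DSC3 and DSG3, and PKP4 above DSG3. The summed level of the 10 genes was 241 RPKM in the parental library and 277 RPKM in TRPV3-OE, 1.15-fold higher.

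**Figure D3:**
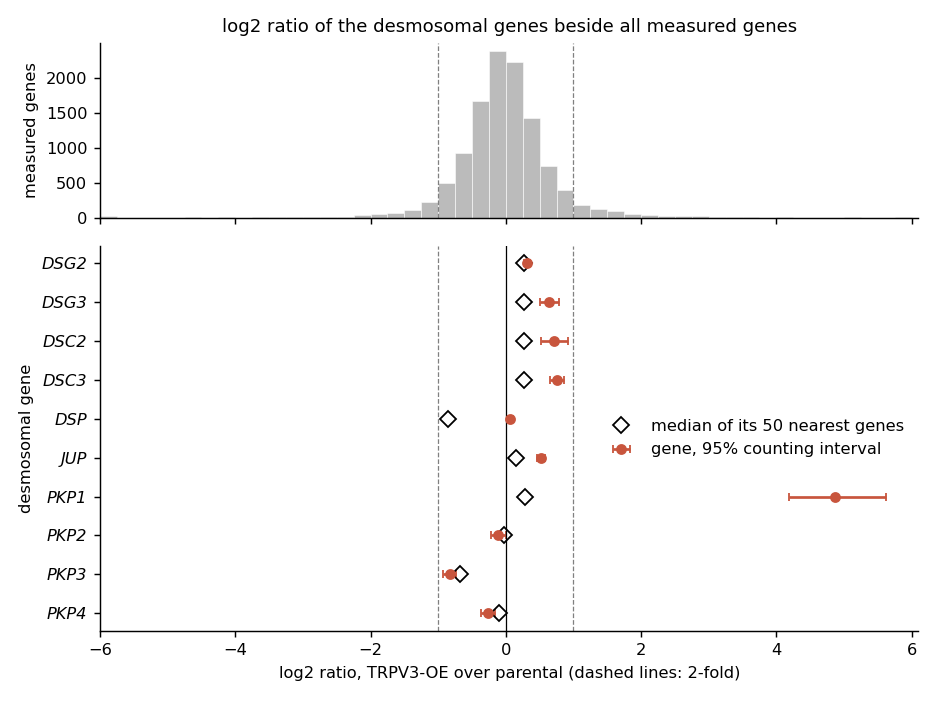
Above, the number of measured genes at each log2 ratio of TRPV3-OE over parental, with values beyond 6 gathered in the end bars. Below, each desmosomal gene with its exact 95% counting interval (filled circles) and the median of the 50 measured genes nearest to it on its chromosome (open diamonds); PKP1 at 4.86 stands alone past 2-fold, and DSP at 0.07 lies far from its neighbours' median of −0.85.

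The 10 genes lie on 7 chromosomes, and the genes around them differed between the libraries in different ways. Over the 50 measured genes nearest to a member, the 10 members left out, the median log2 ratio was 0.285 around PKP1, and 0 of those 50 genes had a ratio as high as that of PKP1. Next to it, TMEM9 had a log2 ratio of 0.64 and LAD1, which encodes the anchoring filament protein ladinin, 0.45. Around PKP3 the median was −0.68, with 12 of 50 genes at least 2-fold lower, where 5.35% of all measured genes were. PKP3 at −0.83 lay 0.15 below that median. Its neighbours B4GALNT4 (−1.91) and IFITM3 (−1.125) were lower still, while SIGIRR (0.34) and ANO9 (0.64) on the other side were not.

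The reverse held for DSP. Its 50 nearest genes had a median of −0.85 with 14 at least 2-fold lower, beside 5.35% of all measured genes. Of the 50, 4 had a higher ratio than DSP. The adjacent genes RIOK1 (−0.83) and SNRNP48 (−0.87) were lower in TRPV3-OE while DSP was level. DSP lay 0.92 above the local median on the log2 scale. Around JUP that median was 0.15, around PKP2 −0.03 and around PKP4 −0.11. The part of the surrounding genes in the members' ratios was not tested.

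DSG2, DSG3, DSC2 and DSC3 lie within 0.559 Mb on chromosome 18, next to each other among measured protein-coding genes, and share 1 local median of 0.275. DSC3, DSC2 and DSG3 lay 0.48, 0.44 and 0.37 above it, and DSG2 0.04. Past DSG2 on the other side B4GALT6 had a log2 ratio of 0.31 and TRAPPC8 0.40. The next measured genes there were RNF138 (−0.037), GAREM1 (1.455) and KLHL14 (8.353). Their starts lay 0.59, 0.97 and 1.275 Mb from that of DSG2. CDH2, the N-cadherin gene and the nearest measured protein-coding gene beyond DSC3, had 773 and 22 counts (log2 ratio −5.19, −5.87 to −4.58).

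**Figure D4:**
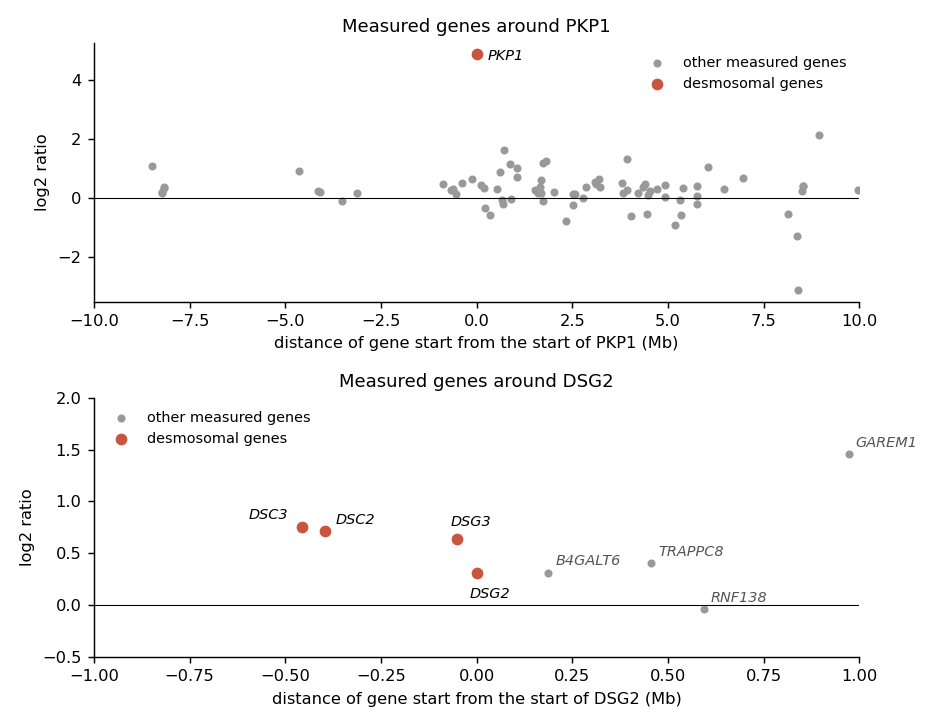
Log2 ratio of each measured gene against the distance of its start from the start of PKP1 (above, 10 Mb to each side) and of DSG2 (below, 1 Mb to each side), in Mb; desmosomal genes are red. PKP1 stands apart from its neighbours, whereas DSC3, DSC2 and DSG3 lie between 0.64 and 0.76 and DSG2 lies level with B4GALT6 at 0.31.

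The other known desmosomal genes were nearly all silent. DSG1 and DSC1, which belong to differentiated skin layers, and CDSN, which encodes corneodesmosin, had 0 counts in both libraries. Taking 3 counts per library as the limit that a count of 0 allows, their levels may reach 0.175 CPM (parental) and 0.168 CPM (TRPV3-OE). DSG4 had 0 counts and 1 count. PERP, a tetraspan protein of desmosomes, was abundant with 4202 and 6149 counts (57.2 and 80.5 RPKM) and a log2 ratio of 0.49 (0.44 to 0.55). Of the armadillo proteins most related to plakophilins, CTNND1 (p120 catenin, which steadies classical cadherins) had 5107 and 9730 counts and a log2 ratio of 0.87 (0.83 to 0.92). ARVCF was at 0.15 (−0.01 to 0.31), and CTNND2 had 0 counts in both libraries.

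None of the 5 plakins, large linkers between filaments and membranes, passed 2-fold, which 5.31% (higher) and 5.35% (lower) of all measured genes did. Periplakin (PPL) had a log2 ratio of 0.52 with 1717 and 2558 counts, and envoplakin (EVPL) −0.30 with 950 and 805 counts. PLEC was at −0.27, DST at −0.07 and MACF1 at 0.11. Of 15 keratins, the filaments that desmosomes anchor, 10 were measured, 2 of them higher and 2 lower, beside the same 5.31% and 5.35%. KRT81 (4.51-fold) and KRT80 (4.00-fold) were higher and KRT15 (2.29-fold) and KRT17 (2.05-fold) lower. Keratin genes have close relatives and pseudogenes, and how many of their reads were left out for aligning to several genes was not measured.

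Genes of desmosome assembly and turnover did not pass 2-fold in either direction (0 of 12 measured, median log2 ratio −0.18). Of all measured genes 5.31% were higher and 5.35% lower by that rule, so a count of 0 among 12 does not set this list apart. FLOT1 (2126 and 1380 counts, −0.68) and FLOT2 (−0.46) encode flotillins that bind desmogleins in membrane rafts. KIF3A, a motor subunit tied to desmocollin transport, was at 0.55 and PRMT1, a methyltransferase, at −0.41.

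Regulators of epithelial genes were more divided. Of 12 transcription factors that favour epithelial programmes 9 were measured, with 4 higher and 0 lower by the 2-fold rule, which 5.31% and 5.35% of all measured genes passed. The 4 were GRHL1 (179 and 666 counts, 3.58-fold), a known activator of DSG1, ELF3 (3.09-fold), OVOL2 (2.55-fold) and KLF4 (2.15-fold). The list's median was 0.85, and it moved with the minimum of summed counts, to 1.09 at 20 and 0.62 at 500. The 3 factors with ratios below 1 were EHF (log2 ratio −0.945, −1.24 to −0.65), KLF5 (−0.53) and TP63, the basal-layer master factor (−0.41). Of 6 repressors of junction genes 4 were measured and 3 were lower. ZEB1 had 116 and 1 counts (log2 ratio −6.91, −12.23 to −4.41), TWIST2 156 and 18 (9.01-fold lower) and SNAI2 1030 and 411 (2.61-fold lower). TWIST1 was at −0.23, and SNAI1, below the minimum of 100 counts, had 21 and 45 counts (log2 ratio 1.04, 0.27 to 1.87). The median of the measured repressors was −2.28, and −1.38 with a minimum of 20 counts, which lets SNAI1 in. ZEB1 and TWIST2 reached the minimum of 100 counts through the parental library alone, so both calls and the median of −2.28 depend in part on that minimum. Some genes of both lists were known from earlier results on these libraries to differ, so these counts are no independent evidence of a direction. The part of these factors in the level of PKP1 was not tested.

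**Figure D5:**
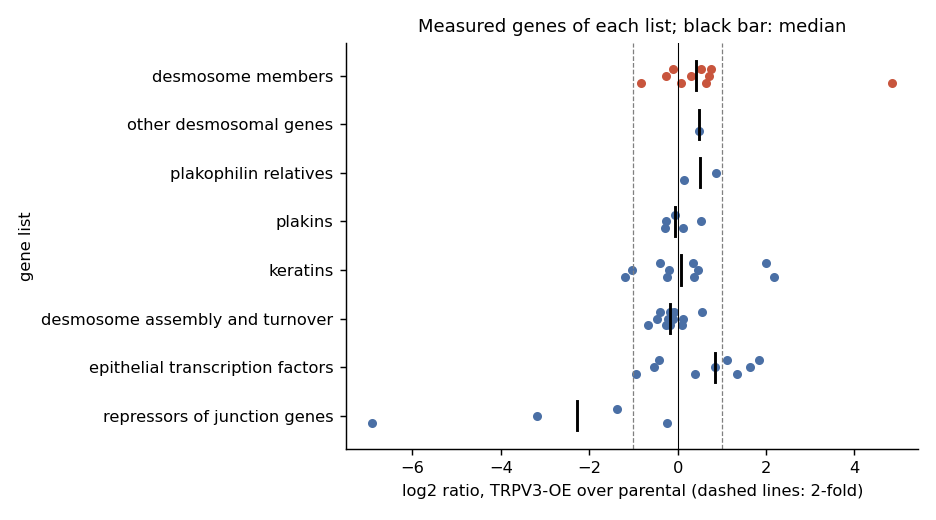
Each point is a measured gene of the named list at its log2 ratio of TRPV3-OE over parental, and black bars are list medians. The 10 desmosomal genes (top) have a median of 0.42 and the 4 measured repressors of junction genes (bottom) −2.28, or −1.38 at a minimum of 20 summed counts. Among these repressors ZEB1 and TWIST2 reached the minimum of 100 counts through the parental library alone.

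Among protein-coding genes of 500 or more summed counts, the 5 whose log2 ratio lay nearest to that of PKP1, over these 2 libraries, were PPP1R16B, IP6K3, FRMD4B, PRKAA2 and SLPI. Their ratios were 0.17, 0.21, 0.36, 0.69 and 1.18 away from that of PKP1. PPP1R16B had 42 and 1424 counts, IP6K3 23 and 802, FRMD4B 304 and 7169, PRKAA2 100 and 1868 and SLPI 56 and 748. All 5 reached 500 counts through the TRPV3-OE library alone, so which genes appear here depends in part on that minimum. None of the 5 stands in the lists above.

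All 8 epithelial markers were measured in both libraries and 0 passed 2-fold, which 5.31% (higher) and 5.35% (lower) of all measured genes did. Among the markers were EPCAM (log2 ratio 0.55), KRT19 (0.45), KRT5 (−0.40) and E-cadherin, CDH1 (−0.09). The summed level of all 8 was 7640 and 7341 CPM. Among cornified keratinocyte markers KRT1 and LORICRIN were at 0 in both libraries, as were COL3A1 and LUM of the fibroblast list, KDR of the endothelial list, PTPRC, CD3E and MS4A1 of the immune list, and DES, MYH6 and MYH7 of the muscle list. Summed levels were 50.5 and 52.2 CPM for cornified, 97.1 and 124 CPM for fibroblast, 19.5 and 10.3 CPM for endothelial, 4.26 and 25.9 CPM for immune and 0.0584 and 0.281 CPM for muscle markers. Single genes made up most of several sums. CD14 alone gave 4.20 and 25.8 CPM of the immune sum, so the immune difference is that of 1 gene. KRT10 gave 47.7 and 48.1 CPM of the cornified sum and FBLN1 72.7 and 107 CPM of the fibroblast sum. Measured members numbered 2 of 6, 2 of 8, 2 of 5, 1 of 5 and 0 of 5 in these lists. CD14 (6.14-fold) and EGFL7 (2.5-fold) were at least 2-fold higher and CDH5 (7.96-fold) lower, while KRT10 (log2 ratio 0.01), TGM1 (0.63), COL1A1 (−0.58) and FBLN1 (0.56) lay within 2-fold. CD14 and EGFL7 reached the minimum of 100 counts through the TRPV3-OE library alone, and CDH5 through the parental library alone. The part of such cells in the desmosomal values was not tested.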

How the data were processed

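RNA was sequenced in 1 parental and 1 TRPV3-OE library, grouped by the genotype label. Both files hold unnormalised read counts by gene, which the authors made with featureCounts 1.5.0-p3 on its opposite-strand setting with Ensembl release 87 gene models on GRCh38.p7, per the file headers. Those headers show no option for reads with several alignments, so such reads were by default left out. The submitters' processing notes also name STAR and DESeq2 but give no version. None of the 10 genes shares exon bases with another gene on its strand. The share of 50-base windows of the longest GENCODE 29 transcript also found in another gene's transcripts was 7.10% for PKP2, 4.25% for DSG3 and at most 3.23% for the other members.

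Symbols came from a table of gene names that names 41445 of the IDs. Libraries were scaled by TMM factors (edgeR 4.0.16, R 4.3.3), so that a single read was worth 0.0584 CPM (parental) or 0.0562 CPM (TRPV3-OE). Levels per length used the exon length in the files. No model was fitted. CPM and RPKM carry exact Poisson intervals, ratios exact conditional binomial (Clopper-Pearson) intervals, and pairs of genes exact conditional odds ratios. Ratios took a count of 0 as 0.5. The ratio and call calculation was tested on simulated data with known differences. Intervals were computed with scipy 1.17.1 in Python 3.11.15.

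The members, the lists and the settings were chosen with earlier results of these data known. Named genes are the 10 members, TRPV3, every gene of the lists of other desmosomal genes, plakophilin relatives and plakins, up to 4 measured members of each other list with the largest absolute log2 ratio, and the 5 genes nearest to PKP1 in ratio. Neighbouring genes, markers at 0, CDH1, EHF, KLF5 and SNAI1 were named after their values were seen. The closing section gives the alternatives tried.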

Additional observations from a re-analysis of the deposited data

How the results depend on the processing

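No paired analysis was possible because there is a single library on each side, and none could be left out. Of the desmosomal genes 1 was at least 2-fold higher and 0 lower under the main settings. These numbers were the same under 3 other scalings, a prior count of 5, thinning of the deeper library and a 4-fold limit. A 4-fold limit could not raise the number of lower genes. Thinning removed few reads, because the library totals were nearly equal. Minimums of 1, 20 and 500 summed counts and protein-coding genes alone could not change either number. All 10 genes are protein-coding and have at least 562 summed counts. With a 1.5-fold limit the numbers became 4 higher and 1 lower, as more genes qualify by construction. The log2 ratio of PKP1 ranged from 4.52 with the prior count of 5 to 4.92, and was 4.58 after subtraction of the local median. Other scalings moved the median of all measured genes by at most 0.0582 and no member changed sign. Under scaling, prior count and thinning, 45 of 50 member ratios stayed within their counting intervals and 5 moved, those of DSP (up to 0.125), JUP (0.583) and DSG2 (up to 0.372). Subtraction of the local median took 8 of 10 member ratios outside their intervals, most for DSP (0.92), PKP3 (−0.15) and DSG2 (0.04). With the longest transcript as gene length PKP1 held 8.37% of the plakophilin sum in TRPV3-OE and DSP 31.8% of the sum of DSP and JUP. At that length JUP, and not DSG2, was the highest of the 10 genes in TRPV3-OE. For PKP1, 18 parental counts leave an interval from 18.2-fold to 49.4-fold, so the size of its difference is known only roughly at this depth.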
